A study of Rattus norvegicus with 24 samples.

Results

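Blood gene expression of rats fed a diet with the oat beta-glucan G1 and given no lipopolysaccharide (LPS), the group C-G1, was compared with that of rats fed the control diet and given no LPS, the group C-G0. The samples were chosen by their titles and comprised 8 of the 24 arrays of the series, 4 per group and 1 rat per array. All animals were male Sprague-Dawley rats, 8 weeks old when feeding began, that received a semi-synthetic diet for 6 weeks. The G1 diet contained 1% (w/w) beta-glucan of high molecular weight, and the G2 diet of a further group without LPS (C-G2) the same share of beta-glucan of low molecular weight. C-G0, C-G1 and C-G2 rats were injected repeatedly with saline into the tail vein, whereas LPS-G0, LPS-G1 and LPS-G2 rats, on the control, G1 and G2 diets, received repeated injections of 10 mg/kg LPS, the endotoxin of Gram-negative bacteria, and blood was drawn from the heart under anaesthesia when feeding ended. The question of the comparison was what the G1 diet alone did to blood transcripts in animals without induced inflammation.

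Beta-glucans of cereals are soluble fibres of linked glucose units that reach the large intestine undigested and are fermented there to short-chain fatty acids. Fungal beta-glucans are recognised on phagocytes by dectin-1 (*Clec7a*), which signals through the kinase Syk and the adaptor Card9, and complement receptor 3 (*Itgam* with *Itgb2*) binds them as well. Rat blood is rich in RNA of young red cells. Reticulocytes have lost their nucleus but still hold transcripts for haemoglobin, for the heme pathway and for the membrane skeleton, the mesh of spectrin, actin and adducin that is tied to band 3, and they degrade these transcripts as they mature.

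Each array carried the RNA of 1 rat in Cy3 and a pooled reference RNA in Cy5 according to the sample labels, and all values below are log2 ratios of rat over reference. The methods of the study name the dyes the other way round. Under those dyes every sign given here would turn. Over 7074 probes bright in both channels Cy3 varied more between arrays than Cy5 in 95.3% of cases, and all 24 arrays correlated better with the others in Cy5 than in Cy3, so the labels were followed. Between 7786 and 15385 probes per C-G0 array and between 10304 and 15349 per C-G1 array were well above background in Cy3, and the tests covered the 9619 probes that met this throughout C-G0 or throughout C-G1. C-G0 array 1 and C-G1 array 2 lay farthest apart, with a correlation of -0.54 over the tested probes and -0.16 over all probes. The median SD between arrays was 0.36 in C-G0 and 0.27 in C-G1, against 0.22 to 0.29 in the other groups. The arrays came from 3 slides that each held all 6 groups. Slide 1 held 2 C-G0 arrays and 1 C-G1 array, slide 2 held 1 C-G0 array and 2 C-G1 arrays, and slide 3 held 1 of each.

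No gene passed the test of C-G1 vs. C-G0 after adjustment for multiple testing. Of the 9619 probes, 0 (0%) had an adjusted p under 0.05 and a 2-fold difference, and the smallest adjusted p was 0.337 (limma, Benjamini-Hochberg), which is also the adjusted p of every probe with an unadjusted p under 0.05. Analysis of variance with Tukey's test, which the study used on fewer groups and which was applied here to all 6, called 0 as well once adjusted. At an unadjusted p under 0.05, 806 probes (8.38%) were lower and 568 (5.9%) higher in C-G1, and with at least a 2-fold difference 58 were higher and 89 lower, 1.53% of those tested. The 4 arrays of one group did not overlap those of the other for 385 probes (4%) that were lower and 327 (3.4%) that were higher in C-G1. The p-values measure the spread between these 4 rats per group. The values below are therefore differences between these arrays, of which none passed the adjusted test in this fit. A fit over all 24 arrays, which takes its spread from all 6 groups, called 4 probes at 2-fold, those for *Nfix* (2 probes), *Add2* and *Furin*, all lower in C-G1. As C-G0 had the largest median SD (0.36), a spread shared over the groups can understate the error of this comparison. The count at an unadjusted p and 2-fold depended on single arrays, from 41 without C-G0 array 1 to 421 without C-G0 array 4. Its split turned to more higher than lower probes with array weights (34 to 17), with slide as a block (61 to 45), within slide 1 (84 to 68), without C-G0 array 2 (161 to 127), without C-G1 array 2 (47 to 29) and without both C-G0 array 1 and C-G1 array 2 (10 to 8).

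Genes of the red cell membrane and its skeleton had the lowest median difference of the 35 gene lists examined. Of 18 listed genes, 14 were on the array and 12 were tested. All 12 had negative differences, of which that of *Rhag* was the smallest at -0.19, with a median of -1.01 beside 0.06 for all tested probes. Of the 12, 10 had an unadjusted p under 0.05, where the share over all probes in this direction was 8.38%, and in 3 the groups did not overlap, where it was 4%. The median of the 12 genes was 0.81, -0.06, 0.37 and 0.38 on C-G0 arrays 1 to 4 and -0.21, -1.35, -0.66 and -0.11 on C-G1 arrays 1 to 4. C-G0 array 1 was thus the highest and C-G1 array 2 the lowest, and the groups did not overlap. Without C-G0 array 1, 5 of the 12 genes had an unadjusted p under 0.05, without C-G1 array 2 6 did, and without both of these arrays 4 did, with a median of -0.65. Within slides 1, 2 and 3 the median difference was -0.60, -1.38 and -0.34. Fewer reticulocytes in the blood and less of these transcripts per cell cannot be told apart in whole blood.

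*Add2*, which encodes beta-adducin, the protein that caps actin and ties it to spectrin, had values of 0.98, 0.31, 0.47 and 0.30 in C-G0 and of -0.38, -0.77, -0.34 and -0.46 in C-G1. Every C-G1 array was below every C-G0 array. The difference was -1.002 ± 0.213 (SE), a 2.00-fold lower level, with an unadjusted p = 0.000551 (limma). The difference was -1.02, -1.03 and -0.76 within the 3 slides, and a second *Add2* probe gave -0.91.

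*Slc4a1*, band 3, the chloride and bicarbonate exchanger that anchors the skeleton to the membrane, had values of 1.22, 0.04, 0.55 and 0.64 in C-G0 and of -0.41, -1.05, -0.12 and -0.34 in C-G1. Here, too, the groups did not overlap, and the difference of -1.09 (unadjusted p = 0.00221) was -1.04, -1.13 and -0.99 within slides. *Tmod1*, tropomodulin, which caps the short actin filaments of the skeleton, was the remaining gene without overlap, with 0.91, -0.11, 0.36 and 0.02 in C-G0 and -0.18, -0.95, -0.25 and -0.19 in C-G1, a difference of -0.69. The other members rested more on single arrays. *Rhd*, a Rh blood group protein, had 0.28, 0.04, 0.34 and 0.64 in C-G0 and 0.08, -1.92, -1.11 and 0.22 in C-G1, a difference of -1.01, so that C-G1 arrays 2 and 3 lay far below arrays 1 and 4, which reached into the range of C-G0. *Kel*, the Kell blood group protein, showed the same split with -0.19, -2.51, -1.37 and 0.09 in C-G1, a difference of -0.99. *Sptb*, a spectrin chain, differed by -0.79, *Epb42*, which links band 3 to the skeleton, by -1.01 and the water channel *Aqp1* by -0.83.

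**Figure D1:**
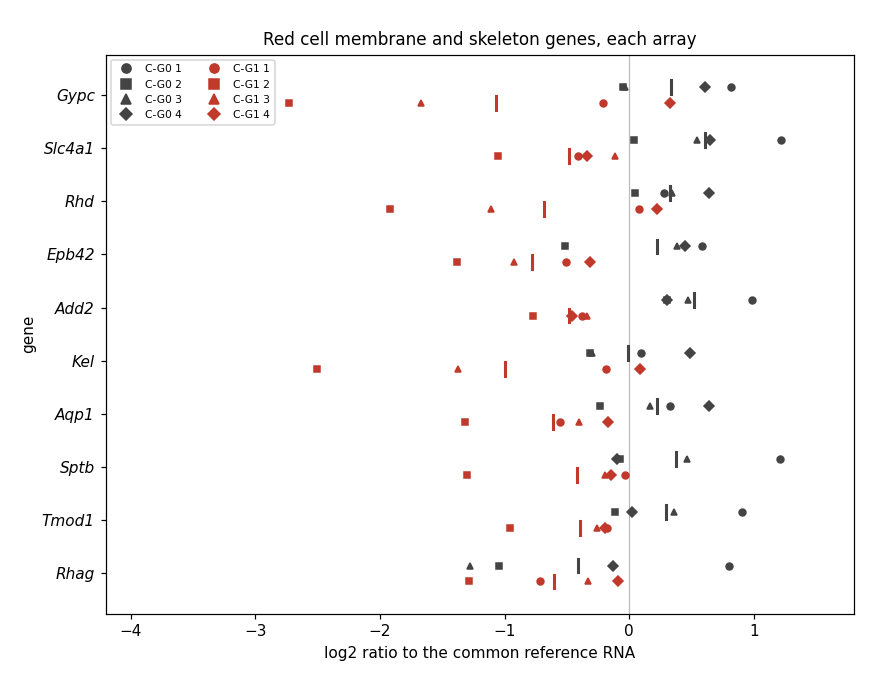
Log2 ratio of rat over reference RNA (horizontal axis) of red cell membrane genes (rows, 10 of the 12 tested) on each of the 4 C-G0 and 4 C-G1 arrays, with 1 mark per array and a bar at each group mean. *Add2*, *Slc4a1* and *Tmod1* separate the groups, while for *Rhd* and *Kel* C-G1 arrays 2 and 3 lie far below the other C-G1 arrays.

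The probes of the leading members are on chr4:120266375-120266434 for *Add2*, chr10:91455352-91455411 for *Slc4a1* and chr5:62668053-62668112 for *Tmod1* of the rat assembly rn4, as the array files give them. To show what lies before these genes, the 250 bases upstream of the start of each member were taken from RefSeq (GRCr8), in which 9 of the 12 members had an entry. The letters AGATAA or TTATCT (a form of the site of GATA factors, on either strand) were in 3 of the 9, beside 10.3% of 33469 promoters, and CCACCC or GGGTGG (the core bound by Krüppel-like factors, on either strand) in 3 of the 9, beside 26.1%. Other forms of the GATA site were not searched. The 4 promoters below are those of the 2 members without overlap that had an entry, *Add2* and *Tmod1*, and of the other 2 members with a GATA match, *Rhd* and *Sptb*. Capitals mark the letters searched, which are matches and not measured sites. *Add2* is at chr4:120054628-120054877 (plus strand), *Tmod1* at chr5:65111812-65112061 (plus strand), *Rhd* at chr5:152370950-152371199 (plus strand) and *Sptb* at chr6:101170279-101170528 (minus strand), each written 5' to 3' on the strand of the gene.
Add2: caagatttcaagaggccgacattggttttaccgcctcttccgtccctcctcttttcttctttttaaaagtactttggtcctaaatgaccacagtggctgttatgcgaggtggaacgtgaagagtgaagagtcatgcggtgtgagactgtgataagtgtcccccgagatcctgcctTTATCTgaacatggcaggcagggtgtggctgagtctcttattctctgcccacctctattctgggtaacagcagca
Tmod1: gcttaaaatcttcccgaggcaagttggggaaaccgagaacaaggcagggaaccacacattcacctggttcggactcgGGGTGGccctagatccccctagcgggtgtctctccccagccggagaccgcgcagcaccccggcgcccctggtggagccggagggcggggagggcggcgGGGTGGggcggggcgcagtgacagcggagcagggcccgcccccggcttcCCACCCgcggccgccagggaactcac
Rhd: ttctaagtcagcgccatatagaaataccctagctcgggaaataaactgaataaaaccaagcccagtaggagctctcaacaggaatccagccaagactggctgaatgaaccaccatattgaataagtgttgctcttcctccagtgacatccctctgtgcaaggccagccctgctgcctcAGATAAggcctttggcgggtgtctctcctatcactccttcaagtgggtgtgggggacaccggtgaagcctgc
Sptb: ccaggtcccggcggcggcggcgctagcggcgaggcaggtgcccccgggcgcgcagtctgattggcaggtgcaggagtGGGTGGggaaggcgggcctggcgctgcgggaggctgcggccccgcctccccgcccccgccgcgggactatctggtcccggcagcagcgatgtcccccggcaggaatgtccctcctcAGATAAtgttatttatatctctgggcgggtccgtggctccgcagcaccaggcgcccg
The *Add2* and *Rhd* windows held the GATA letters alone, the *Tmod1* window 3 copies of the Krüppel-like letters, and the *Sptb* window 1 copy of each.

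Transcription factors and maturation genes of the erythroid line had 16 of 17 tested members below 0 and a median of -0.60. An unadjusted p under 0.05 was reached by 7 members on the lower and 1 on the higher side, beside 8.38% and 5.9% of all probes. Without C-G1 array 2 the median was -0.28. *Nfix*, a nuclear factor I protein with a role in blood progenitors, had 1.07, 0.02, 0.67 and 0.49 in C-G0 and -0.70, -0.90, -0.64 and -0.21 in C-G1. The groups did not overlap, the difference was -1.18 (unadjusted p = 0.000554) and the second probe gave -1.09. *Bcl11a*, the repressor of fetal globin genes, differed by -0.88, with 0.87, 0.82, 0.58 and -0.21 in C-G0 and -0.30, -0.55, -0.37 and -0.23 in C-G1, where C-G0 array 4 lay just above the highest C-G1 array. *Gata1*, the master regulator of the erythroid line, had 0.80, 0.22, 0.22 and 0.12 in C-G0 and -0.02, -1.49, -0.29 and -0.33 in C-G1, a difference of -0.87 without overlap. *Xpo7*, a nuclear exporter used as red cells condense their chromatin, gave -1.91 at its brightest probe, with C-G1 arrays 2 and 3 at -3.39 and -2.55 and C-G1 arrays 1 and 4 at -0.05 and 0.29. That probe was above background on 3 of 4 C-G1 arrays and so was tested only through C-G0. The member above 0 was *Lmo2*, an adaptor of the Gata1 complex, at 0.75, which was above background on 2 of 4 C-G0 arrays and had -1.66 on C-G0 array 1.

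Genes of heme synthesis and iron delivery to it had a median of -0.76 over 8 members, and 3 of them had an unadjusted p under 0.05, all lower, beside 8.38% of all probes. Without C-G1 array 2 the median was -0.39, and the count was 2 without C-G0 array 3 or 4 or C-G1 array 2 or 3 and 5 without C-G1 array 1 or 4. *Alad*, the second enzyme of the pathway, separated the groups with 0.48, 0.45, 0.43 and 0.68 in C-G0 and 0.14, -1.48, -0.46 and 0.25 in C-G1, a difference of -0.90. The mitochondrial iron importer *Slc25a37* (mitoferrin) differed by -1.07 and the decarboxylase *Urod* by -0.86, again with C-G1 array 2 lowest in each. *Alas2*, the erythroid rate-limiting enzyme, differed by only -0.18 and *Fech*, which inserts the iron, by -0.23. The haemoglobin genes themselves had a median of -0.03 over 6 members. *Hba1*, an alpha globin, had -0.29, -0.29, -0.24 and -0.49 in C-G0 and -0.39, -0.70, -0.27 and -0.47 in C-G1, so that the groups overlapped. *Hbb*, a beta globin, differed by 0.08. Globin genes are near-identical copies, and their probes may share signal. *Ahsp*, the chaperone of free alpha globin and the one member with an unadjusted p under 0.05, had 0.19, -0.08, 0.13 and 0.20 in C-G0 and -0.14, -2.43, -1.62 and -0.10 in C-G1, a difference of -1.18 that lay in C-G1 arrays 2 and 3.

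The red cell lists together, with a marker list of erythroid cells whose 13 tested members were all on the other 4 lists as well, held 43 tested genes. Of these, 39 were below 0, and 21 (48.8%) had an unadjusted p under 0.05 on the lower side, beside 8.38% of all probes, and 1 on the higher side. The groups did not overlap on the lower side in 10 of the 43, beside 4% of all probes. The lists were drawn up with earlier results of these data known, and their genes move together across arrays, so these counts describe the arrays and are no test of the lists.

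**Figure D2:**
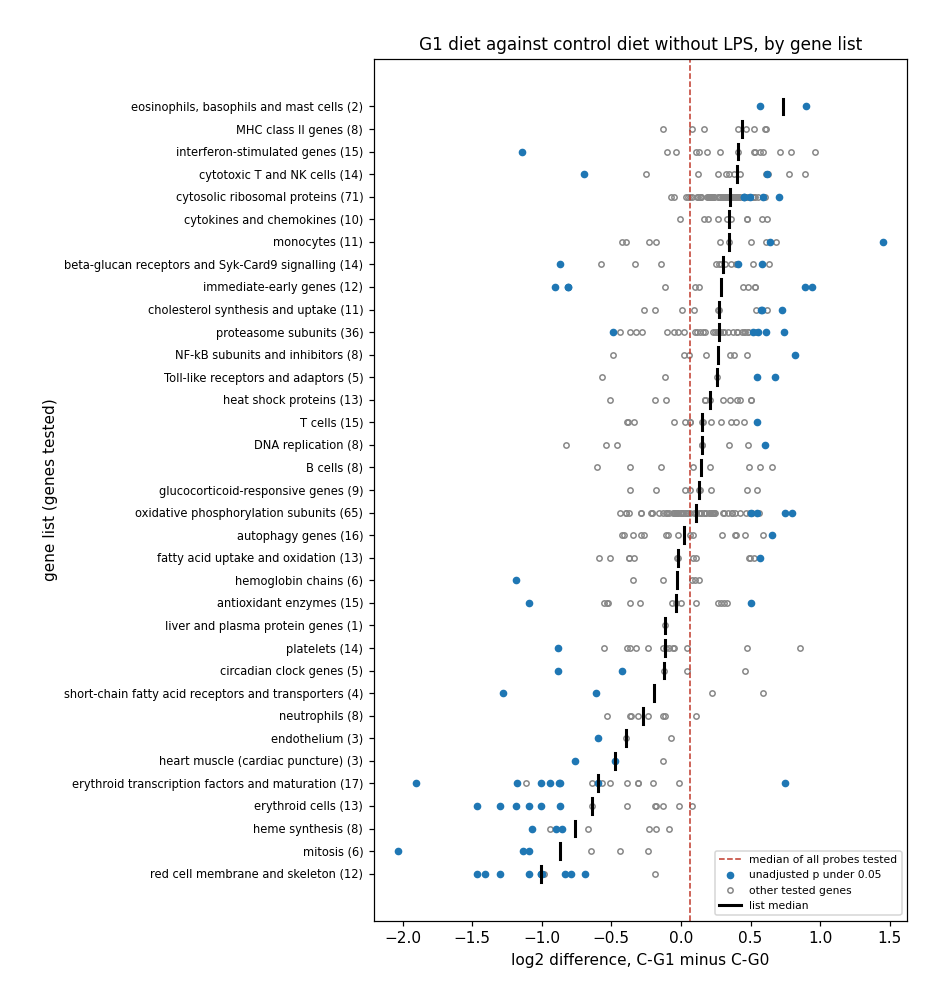
Differences C-G1 minus C-G0 (log2, horizontal axis) of the tested members of the gene lists, with 1 point per gene, filled at an unadjusted p under 0.05, a bar at the list's median and a dashed line at the median of all probes. The red cell lists lie below 0 except for haemoglobin, near 0, and the ribosomal proteins lie above it.

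Of 22 listed mitosis genes 6 were tested. All 6 had negative differences, and 3 had an unadjusted p under 0.05, beside 8.38% of all probes on the lower side. The count was 2 without C-G0 array 1 or 2 or C-G1 array 2 or 3, and the median of -0.87 was -0.53 without C-G1 array 2. *Mki67*, which coats mitotic chromosomes and marks dividing cells, had 0.72, -0.13, 0.15 and 0.46 in C-G0 and -0.45, -1.37, -1.42 and -0.47 in C-G1. The groups did not overlap at this probe, and the difference was -1.23, but it was above background on 3 of 4 C-G1 arrays and so was tested only through C-G0. At the brightest *Mki67* probe the difference was -1.14 and the groups overlapped, with C-G0 array 2 at -0.22 and C-G1 arrays 1 and 4 at -0.14. *Tpx2*, a spindle assembly factor, differed by -2.03, with C-G1 arrays 2 and 3 at -2.54 and -3.43 and C-G1 arrays 1 and 4 at -0.37 and 0.08, and was above background on 2 of 4 C-G1 arrays. *Ube2c*, the ubiquitin-conjugating enzyme of the anaphase complex, had the same pattern with -0.27, -2.10, -1.85 and 0.42 in C-G1. The median of the 6 genes was 0.54, -0.03, 0.09 and 0.28 in C-G0 and -0.21, -1.60, -0.83 and 0.05 in C-G1, so that C-G1 array 4 was above C-G0 array 2. DNA replication genes did not share the direction. Of 21 listed 8 were tested, 3 below and 5 above 0, with a median of 0.15 (-0.02 to 0.22 without single arrays). Among them 1 had an unadjusted p under 0.05 on the higher side, beside 5.9% of all probes, and 0 on the lower.

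*Slc16a1* encodes the monocarboxylate transporter that carries lactate and short-chain fatty acids. It had 1.27, 0.38, 0.67 and 0.42 in C-G0 and -0.14, -0.88, -0.64 and -0.73 in C-G1, without overlap, a difference of -1.28. It was dim, above background on 4 C-G0 arrays but on 2 of the 4 C-G1 arrays, so that it was tested only through the group in which it was high, and the difference was -0.50 with normexp and loess. Of 9 listed genes of transport and sensing of short-chain fatty acids 4 were tested, and the receptors *Ffar2* and *Ffar3* were not. Among the 4, the other with an unadjusted p under 0.05 was *Niacr1* (*Hcar2*), the receptor for niacin and butyrate, with -0.61, where the groups overlapped. That made 2 on the lower side, beside 8.38% of all probes. The remaining 2 were above 0, *Gpr183* at 0.59 and *Slc16a3* at 0.23. Further genes of the naming rule were *Cd36*, the scavenger and fatty acid receptor, at -1.46 and at -0.87 for its brightest probe, the transcription factor *Foxo3* at -1.38, the tetraspanin *Tspan8* at -1.68 and the phosphatase *Phospho1* at -1.37. *Foxo3* and *Phospho1* were above background on 3 of the 4 C-G1 arrays, so that they too were tested only through the group in which they were high. *Cat*, catalase, which breaks down hydrogen peroxide, had 1.07, 0.16, 0.45 and 0.06 in C-G0 and -0.46, -1.06, -0.76 and -0.34 in C-G1, without overlap, a difference of -1.09. *Park2*, the ubiquitin ligase parkin, differed by -2.25, but 1 C-G1 array stood at -5.23. It was above background on 3 of the 4 C-G1 arrays and was likewise tested only through C-G0.

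**Figure D3:**
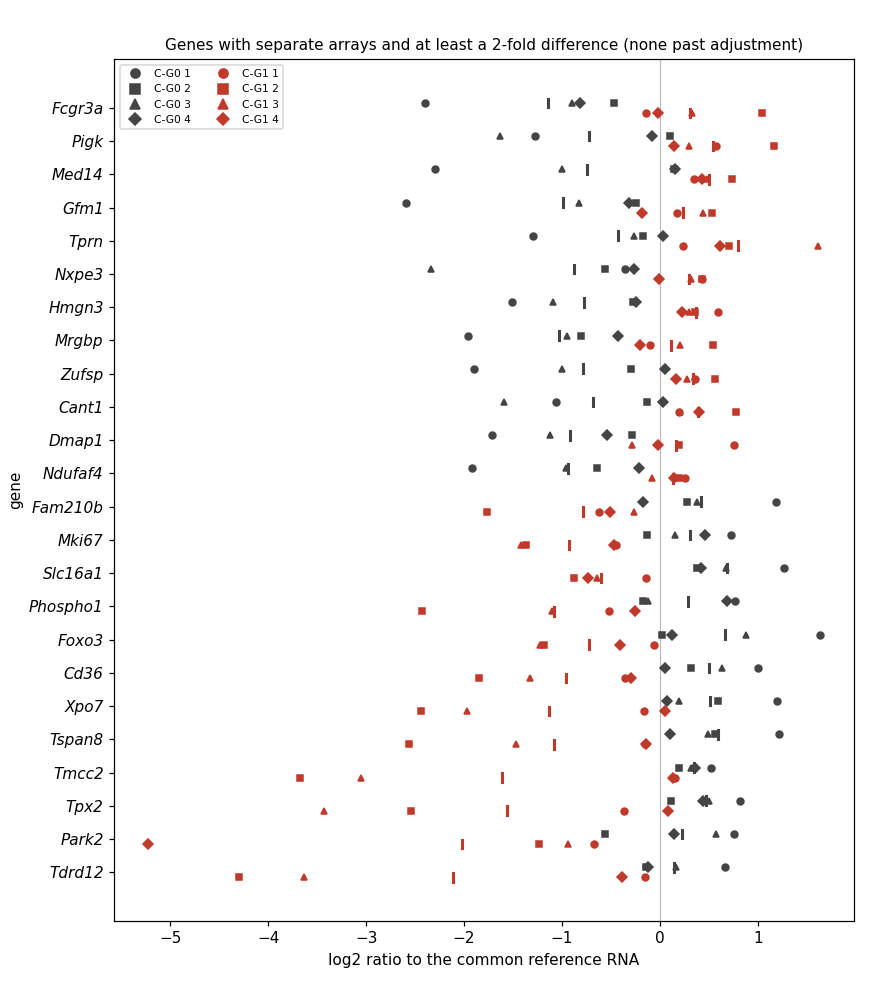
Log2 ratio of rat over reference RNA (horizontal axis) of named genes (rows) whose arrays did not overlap at a 2-fold difference in C-G0 and C-G1, with 1 mark per array and a bar at each group mean. Both conditions chose these genes, so their separation is no finding. The lower genes separate the groups through all 4 C-G1 arrays in some cases (*Slc16a1*) and mainly through arrays 2 and 3 in others.

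The genes with higher values in C-G1 were mostly dim. Of the 58 probes that were higher at 2-fold, 57 were below background on at least 1 of the 8 arrays, and so were 37 of the 89 lower probes. The filter admits such a probe through the group in which it is bright, which favours a difference in that direction. Among the 7255 probes above background on all 8 arrays, 1 was higher and 52 were lower, and the median difference of all of them was 0.01, against 0.24 for the remaining 2364. *Fcgr3a*, a low-affinity receptor for immunoglobulin G on phagocytes and NK cells, had the largest difference of the named higher genes, 1.45, with -2.40, -0.47, -0.90 and -0.82 in C-G0 and -0.14, 1.04, 0.33 and -0.02 in C-G1. *Pigk*, a subunit of the enzyme that attaches GPI anchors, differed by 1.27, the Mediator subunit *Med14* by 1.25 and the mitochondrial elongation factor *Gfm1* by 1.23. *Hmgn3*, a nucleosome-binding protein, differed by 1.15, as did *Mrgbp*, which with *Dmap1* (1.08) belongs to the NuA4 histone acetyltransferase complex. *Fcgr3a* was above background on 3 of 4 C-G0 arrays and each of the other genes named here on 2 of 4. All of them were thus tested only through the group in which they were high. In 48 of the 58 probes, C-G0 arrays 1 and 3 had the lowest values of their group, and C-G0 array 3 was the array with the fewest probes above background.

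Of 14 receptors and signalling genes for beta-glucan, 1 had an unadjusted p under 0.05 on the lower side and 2 on the higher side, beside 8.38% and 5.9% of all probes, with a median of 0.305, which was 0.15 without C-G0 array 1. The groups did not overlap in 1 on the lower and 4 on the higher side, beside 4% and 3.4%, the latter being *Itgb2*, *Syk*, *Plcg2*, a phospholipase, at 0.63 and the kinase *Prkcd* at 0.32. *Plcg2* was above background on 3 of 4 C-G0 arrays, so that it was tested only through the group in which it was high. Its value on C-G0 array 1 was -1.66, with the nearest array of the group at -0.13. *Clec7a* had -0.03, 0.50, 0.07 and -0.24 in C-G0 and -0.22, -0.53, -0.24 and -0.03 in C-G1. The groups overlapped, and the difference of -0.33 had a 95% interval from -0.79 to 0.13. *Syk* separated the groups with -0.29, -0.16, -0.00 and -0.25 in C-G0 and 0.39, 0.14, 0.14 and 0.27 in C-G1, a difference of 0.41, but another probe of the gene gave -0.08. *Itgb2*, the shared beta chain of the leukocyte integrins, did so too with -1.25, -0.60, -1.13 and -0.59 against -0.33, -0.37, -0.05 and -0.47, a difference of 0.59, whereas its partner *Itgam* had -0.57. The member on the lower side was *Cd36*, which also binds beta-glucan. *Card9* differed by -0.15 (95% interval -0.62 to 0.32) and *Tlr2* by 0.39.

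White blood cell genes are read here beside 8.38% of all probes on the lower and 5.9% on the higher side. Markers of neutrophils (8 genes) and MHC class II genes (8) each had 0 with an unadjusted p under 0.05 in either direction, with medians of -0.28 and 0.44, which ranged from -0.53 (without C-G1 array 4) to 0.00 (without C-G1 array 2) and from 0.15 (without C-G0 array 1) to 0.58 without single arrays. Without C-G0 array 4, 2 MHC class II genes were on the higher side. Monocyte markers had 2 of 11 on the higher side and a median of 0.34, and markers of cytotoxic and NK cells 1 of 14 on each side and a median of 0.40. Both rested on single arrays, as 5 monocyte markers were on the higher side without C-G0 array 2, and 6 cytotoxic markers without C-G1 array 4 and 0 without C-G0 array 1 or C-G1 array 1, 2 or 3. Without C-G0 array 1 the medians were 0.05 and 0.14. The 2 higher monocyte markers, *Fcgr3a* and *Emr1*, and the higher cytotoxic marker, *Klrd1*, were each above background on 3 of 4 C-G0 arrays. They were thus tested only through the group in which they were high. Of 15 interferon-stimulated genes 1 was on the lower side, the antiviral *Rsad2* at -1.14, while the median was 0.41 (0.18 without C-G0 array 1 and 0.62 without C-G0 array 4). Of 16 markers of eosinophils, basophils and mast cells 2 were tested, and both were on the higher side. They were *Hdc*, which makes histamine, at 0.90 and the basophil protease *Mcpt8* at 0.57, where the groups overlapped. The count for these markers was 1 without C-G0 array 1. The eosinophil genes *Epx*, *Prg2*, *Prg3* and *Ear11* were not tested. Cytosolic ribosomal protein genes were above 0 in 69 of 71 cases with a median of 0.35, and 5 had an unadjusted p under 0.05 on the higher side. That count was 0 without C-G0 array 1 or C-G1 array 2, 16 without C-G0 array 4 and 1 or 2 without each of the others, and the median was 0.19 without C-G0 array 1 and 0.20 without C-G1 array 2. Their median was -0.60 on C-G0 array 1 and 0.64 on C-G1 array 2, while the other 6 arrays lay between -0.01 and 0.17. Blood was taken from the heart, and of 15 heart muscle markers 3 were tested, *Mb* at -0.76, *Actc1* at -0.47 and *Ryr2* at -0.13. Of those not tested, *Tnnc1* was above background on at most 6 of 8 arrays, *Tnnt2* on 5, *Myl3* on 3 and *Myl2*, *Myl7* and *Ckm* on 1. *Myh6*, *Tnni3*, *Nppa*, *Nppb*, *Mybpc3* and *Pln* were above background on 0 of 8 arrays. The part of heart tissue in these values was not tested.

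With LPS, the same diet was compared in LPS-G1 vs. LPS-G0. Of the LPS-G0 arrays, 2 carry a control label in another field and were used by their titles. In that pair 822 probes (8.55%) were lower at an adjusted p under 0.05. The red cell membrane genes had a median difference of -0.54 there, 11 of 12 were below 0, and 3 had an adjusted p under 0.05 on the lower side. The difference between the diet effects without and with LPS was itself tested by an interaction term. It was called for 0 of 9619 probes at an adjusted p (smallest 0.370), 298 (3.1%) had an unadjusted p under 0.05, and among the 12 red cell membrane genes 2 did. The dim *Slc16a1* differed by -1.28 without and by 0.97 with LPS, and as C-G1 values of this probe were partly below background, its interaction of -2.25 (adjusted p = 0.370, limma) is given as a value only. The mean over arrays of the red cell membrane median was 0.37 ± 0.36 in C-G0 and -0.58 ± 0.56 in C-G1, beside 0.33 ± 0.13 in LPS-G0 and -0.18 ± 0.40 in LPS-G1 (SD, n = 4).

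**Figure D4:**
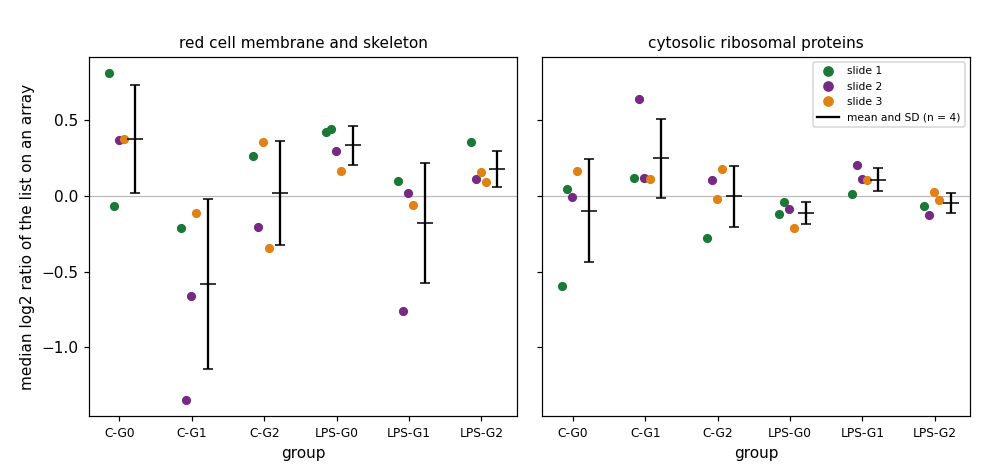
Median log2 ratio (vertical axis) of the red cell membrane list (left) and of the ribosomal protein list (right) on each array of the 6 groups (horizontal axis), with 1 point per array coloured by slide and bars for mean and SD. For the red cell membrane list the C-G1 arrays lie between -1.35 and -0.11 and the C-G0 arrays between -0.06 and 0.81, and for the ribosomal proteins C-G0 array 1 and C-G1 array 2 lie apart at -0.60 and 0.64.

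The beta-glucans of high and low molecular weight, fed at the same share and for the same time, were compared directly in C-G1 vs. C-G2. No probe passed the adjusted test (0 called, smallest adjusted p 0.463, limma), and 300 (3.12%) had an unadjusted p under 0.05 on the lower and 555 (5.77%) on the higher side. The 12 red cell membrane genes had a median difference of -0.66 between the diets, and 2 had an unadjusted p under 0.05, *Slc4a1* at -0.64 (95% interval -1.19 to -0.09) and *Aqp1* at -0.67 (-1.23 to -0.11). For *Add2* the interval ran from -0.71 to 0.06, and for *Rhd* from -1.77 to 0.21. For *Nfix* the difference between the diets was -0.64 (-1.04 to -0.25, unadjusted p = 0.00420). For *Slc16a1* the difference between the diets was 0.61 (-0.281 to 1.498), and beside the control diet, whose arrays both comparisons share, it was -1.28 in C-G1 and -1.89 in C-G2. The red cell membrane median in C-G2 vs. C-G0 was -0.30, beside -1.01 in C-G1 vs. C-G0.

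**Figure D5:**
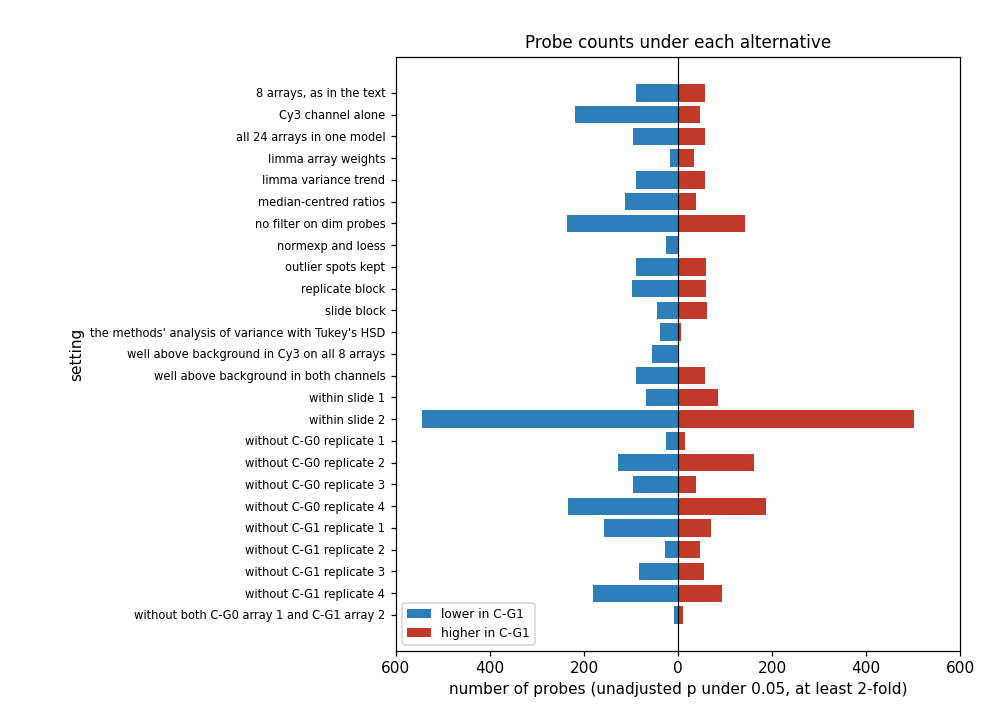
Number of probes (horizontal axis) at an unadjusted p under 0.05 and 2-fold in C-G1 vs. C-G0, lower to the left and higher to the right. Rows are the processing settings, other than 1.5-fold and the deposited value table, and the fits without each array in turn. The total is 147 as reported, and in the plot it runs from 18 without both C-G0 array 1 and C-G1 array 2 to 1046 within slide 2.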

How the data were processed

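The authors deposited Agilent Feature Extraction output (version 10.10.1.1 by the headers, 10.7.3.1 by the submitters' processing notes). Per the file headers, the deposited intensities of both dyes were background-subtracted and Lowess-balanced, and log10 ratios, as deposited, were formed from them, with outlier and background flags. A deposited value table held identical log10 ratios (1511424 of 1511424).

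Log10 ratios were turned to log2 of Cy3 over Cy5. Control and outlier spots were left out and spots of a probe averaged, giving 30367 probes from 58717 spots. The 9619 probes flagged above background in Cy3 throughout C-G0 or throughout C-G1 were fitted over these 8 arrays with limma 3.58.1 in R 4.3.3, two-sided, with Benjamini-Hochberg adjustment over all probes. The fit was tested on simulated data. The interaction and C-G1 vs. C-G2 used the arrays of their own groups and the same probes. The number of arrays limits the precision.

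Members and gene lists were chosen with earlier results of these data known. Genes were named by 2 rules. The first took, in each direction, up to 12 genes by size of difference among probes at an unadjusted p under 0.05, 2-fold and without overlap, and the second the 3 smallest p-values and the brightest member of each list, as well as every beta-glucan receptor gene. Other list members and *Furin* were named after their values were seen. A list gene was read by its brightest tested probe. Of 23402 probes with RefSeq accessions, 18643 matched the reference table. Group labels came from titles. Alternatives covered the filter, background, scaling, slide, weights and single arrays. Some list members are counted in their lists but not reported here.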

Additional observations from a re-analysis of the deposited data

Results flagged for a closer look

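Among 248 groups of 4 arrays examined, 16 had an array whose gap to its nearest neighbour exceeded Dixon's 95% critical value. That share is near the rate of about 1 in 20 that chance alone gives, and the groups share arrays and are not independent. Of the 16, 7 were on C-G0 array 1 and 6 on C-G1 array 2. C-G0 array 1 stood apart in *Scarb1* (-1.02, nearest array -0.03), *Plcg2* (-1.66, nearest -0.13) and *Rps12* (-0.56, nearest -0.11), as well as in the median of the beta-glucan receptor genes (-0.44, nearest -0.12), of the oxidative phosphorylation subunits (-0.33, nearest -0.06), of the proteasome subunits (-0.58, nearest -0.04) and of the B cell markers (-0.69, nearest 0.02). C-G1 array 2 stood apart in *Ube2o* (-1.20, nearest -0.58), *Cd36* (-1.58, nearest -0.38) and *Rps12* (0.72, nearest 0.16). In list medians it stood apart for the antioxidant enzymes (-0.37, nearest 0.02), the ribosomal proteins (0.64, nearest 0.12) and the endothelial markers (-1.13, nearest 0.05). The remaining values were *Nxpe3* on C-G0 array 3 (-2.34, nearest -0.56), *Park2* on C-G1 array 4 (-5.23, nearest -1.24) and the cholesterol genes on C-G0 array 2 (0.16, nearest -0.25).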

How the results depend on the processing

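The count of called probes was 0 in C-G1 vs. C-G0 under every alternative tried except 3. The fit over 24 arrays called 4 (5 at any fold, with *Jund* added), the fit within slide 2, with 1 C-G0 array that is assumed to vary like the 2 C-G1 arrays, called 189 (189 at any fold), and the fit without C-G0 array 4 called 3 (3 at any fold), so that the range without single arrays was 0 to 3. The count of 147 probes at an unadjusted p under 0.05 and 2-fold became 1019 at 1.5-fold, 265 in the Cy3 channel alone, 380 without a filter on dim probes and 1046 within slide 2, and 51 with array weights, 25 with normexp and loess, 45 with Tukey's test and 56 for probes above background on all 8 arrays. It ranged from 41 to 421 without single arrays (41 without C-G0 array 1, 76 without C-G1 array 2, 288 and 421 without C-G0 arrays 2 and 4, 227 and 275 without C-G1 arrays 1 and 4). It was 18 without both C-G0 array 1 and C-G1 array 2, an alternative chosen after seeing the data. The split was 58 higher to 89 lower as reported, 46 to 219 in Cy3 alone, 34 to 17 with array weights, 0 to 25 with normexp and loess, 7 to 38 with Tukey's test, 1 to 55 with the filter on all 8 arrays, 61 to 45 with slide as a block and 38 to 114 after centring each array on its median. The 712 probes without overlap became 231 in Cy3 alone and 1430 without both arrays named above, and 758 to 2297 without single arrays, where fewer arrays overlap less by construction. Other causes were not tested.

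The red cell membrane median of -1.01 was -0.52 with array weights and -0.34 within slide 3, and ranged from -1.15 to -0.70 without single arrays. *Scarb1*, at 0.25, was -0.041 within slide 2 and -0.022 without both arrays, and ranged from -0.0061 (without C-G0 array 1) to 0.364 without single arrays. The interaction with LPS and C-G1 vs. C-G2 had 0 called probes in all alternatives tried, including the one without the LPS-G0 arrays whose labels conflict. The deviations of C-G0 and C-G1 arrays from their group means were correlated to look for a pairing by replicate number. The correlation was 0.14 on average for the same number (-0.14 to 0.44) and -0.07 for different numbers, and 1 of 4 numbers matched best with itself. Whether the numbers pair the samples was not settled by these values, and the main fit did not pair them. With the replicate number as a block, 0 probes were called and 159 (60 higher, 99 lower) had an unadjusted p under 0.05 and 2-fold.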

Other observations

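Further gene groups are given beside 5.9% of all probes at an unadjusted p under 0.05 on the higher and 8.38% on the lower side. Of 65 oxidative phosphorylation subunits 4 had an unadjusted p under 0.05 on the higher side and 0 on the lower, with a median of 0.11, but from 1 (without C-G0 array 1 or 3) to 9 (without C-G0 array 4) on the higher side without single arrays, and of 36 proteasome subunits 4 on the higher and 1 on the lower side, with a median of 0.27 (0.12 without C-G0 array 1). Of 11 genes of cholesterol synthesis and uptake 3 were on the higher side, the enzymes *Msmo1* at 0.72, *Hmgcs1* at 0.58 and *Pmvk* at 0.57, a count of 0 without C-G1 array 2. Some genes in these 3 higher-side counts were tested only through the group in which they were high. The oxidative phosphorylation gene *Ndufs1* and the proteasome gene *Psmd3* were above background on 2 of 4 C-G0 arrays. *Atp5c1* (oxidative phosphorylation), *Psma2* (proteasome) and *Pmvk* were so on 3 of 4. Platelet markers had 1 of 14 on the lower side and a median of -0.12 (0.03 without C-G1 array 2). Among immediate-early genes, which respond within minutes to handling and stimulation, *Jund* was at -0.81, *Fosb* at -0.91 and *Ier3* at -0.81, whereas *Nr4a1* was at 0.94 and *Klf4* at 0.89. None of these genes passed the adjusted test over the 8 arrays (adjusted p = 0.337 in limma at the smallest). *Jund* did at any fold over the 24, where the shared spread can understate the error of a comparison with C-G0.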
